A study of Mus musculus with 272 samples.

Results

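The data described here are the transcriptomes of the unfertilised mouse egg and of the 2-cell embryo. The egg is arrested at metaphase of the second meiotic division (MII), and the 2-cell embryo is the product of fertilisation and the first cleavage. Members were chosen by stage and kind of library as the labels and column names give them, and they make up 8 of the 272 libraries of the series: 4 MII libraries (A to D) and 4 2-cell libraries (E to H, the letters of the deposited columns). Each library came from a pool of 20 oocytes or embryos, with polyA RNA as the molecule and a Smart-seq kit for amplification. The MII pools held unfertilised oocytes and the 2-cell pools held embryos, and no treatment, genotype or allele is named for either group. Strain, age and the source of the embryos are not given in the sources used here. The zygote, the stage between them, was measured the same way in 4 further libraries, and lysates of about 100 oocytes or embryos per stage were also spun through sucrose gradients. The comparison spans 2 consecutive steps, egg to zygote and zygote to 2-cell embryo, so loss of maternal RNA and gain of embryonic RNA are seen together.

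A fully grown mouse oocyte stops transcription, and maturation, fertilisation and the first cell cycle run on mRNA that was stored during growth. Stored mRNA is translated or silenced largely through its poly(A) tail, which is lengthened through cytoplasmic polyadenylation elements in the 3′ UTR and shortened by the CCR4-NOT deadenylase. Many maternal transcripts are degraded during maturation and again around the 2-cell stage. In the mouse a minor wave of transcription starts in the zygote and the major wave of zygotic genome activation falls at the 2-cell stage, when short-lived genes such as the Zscan4 cluster are transcribed.

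The libraries held 17.6 to 22.4 M reads in MII oocytes and 11.2 to 14.9 M reads in 2-cell embryos. Values are CPM, reads of a gene scaled to the library total, with no scaling by length, so a level says how a gene compares with itself across libraries. CPM is a share of the library: fewer transcripts per embryo and more of other transcripts cannot be told apart, nor can a change in amount from a change in capture through the poly(A) tail. An MII library detected 10174 ± 264 genes (SD, n = 4) at 1 CPM or more and a 2-cell library 12234 ± 170, and the exact two-sided permutation test gave p = 0.0286, the smallest that 4 against 4 libraries can give. Nothing in the labels says that pools of a stage came from separate animals or days, so p-values measure the spread between these libraries, which may be technical. The stages matched most of their markers. Of 6 oocyte markers 5 were lower in 2-cell embryos and of 6 2-cell markers 5 were higher, beside 12.3% lower and 30.5% higher of all genes. The exceptions, not called, were Bmp15 and Obox5. Obox5 stood at 7967 to 9582 CPM in MII libraries, so it did not mark the 2-cell stage alone. Markers of other cells were mostly low. Of 11 cumulus and granulosa markers 3 were in the table, with a sum of 59.7 to 68.9 CPM in MII and 11 to 18.7 CPM in 2-cell libraries. In MII almost all of it was Cyp19a1 (59.3 to 68.6 CPM), which fell to between 5.23 and 10.9 CPM, while Amhr2 rose from 0 in all MII libraries to between 2.76 and 7.57 CPM. Of 7 sperm markers 3 were in the table, with sums of 3.06 to 4.29 CPM in MII and 8.80 to 12.4 CPM in 2-cell libraries. The 10 markers of later embryos summed to 121 to 132 CPM in MII and 109 to 130 CPM in 2-cell libraries, but 4 of them rose and 2 fell: Lgals1 went from 0 in all MII libraries to between 45.7 and 49.5 CPM and Krt18 from 0 to between 7.95 and 19.7 CPM, while Gata3 went from between 86.8 and 95.2 CPM to between 36.2 and 40.0 CPM. The part of these other cells in the results below was not tested.

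The transcriptome of the 2-cell embryo differed from that of the egg in a large share of its genes, more of them upward than downward on the deposited scale. A gene was called when limma's test on log2(CPM + 1), fitted over the 32 transcriptome libraries of the 8 stages, gave a Benjamini-Hochberg adjusted p under 0.05 and a change of at least 1 on the log2 scale. Of 14642 genes tested, 6260 (42.8%) were called, 4464 (30.5%) higher and 1796 (12.3%) lower in 2-cell embryos. In 60.1% of all genes tested the 4 libraries of one stage lay entirely above those of the other, and this held for 6131 (97.9%) of the genes called. A further 3357 genes (22.9%) had an adjusted p under 0.05 with a smaller change. The smallest changes called were 1.00014 to 1.00077 and the nearest that missed were 0.999333 to 0.999939.

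Large changes were mostly rises. A change of at least 3 was reached by 758 genes upward and 165 downward, and a change of at least 5 by 136 upward and 10 downward. In 524 of the genes that rose, every MII library held at most 3 reads, while 3 of the genes that fell were that low in every 2-cell library. Symbols of predicted genes were 10.7% of the genes tested. They took 503 of the rises and 66 of the falls, and 33 (24.3%) of the 136 largest rises. Of the predicted symbols tested, 32.2% rose and 4.22% fell, beside 30.5% and 12.3% of all genes. They are counted here and not named. The median change was 0.40 over all genes tested, 1.79 over the genes that rose and -1.65 over those that fell.

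The balance of rises and falls depends on how libraries are scaled to each other. Rises made up 71.3% of calls on the deposited CPM, 61.3% after TMM scaling, 67.3% with edgeR, 61.3% with DESeq2 and 47.2% after quantile normalisation, which moved the median change of all genes from 0.40 to -0.06. Every named gene was recomputed under each scaling, and no direction of a called gene reversed. Where scaling, the tool or a left-out library gained or lost the call of a named gene, the values stand beside it or, for Prm2, in the closing section. The median changes of 7 lists below turned sign with scaling: RNA polymerase II, RNA polymerases I and III, storage of maternal mRNA, proteasome, heat shock proteins, histone modification and histone variants.

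**Figure D1:**
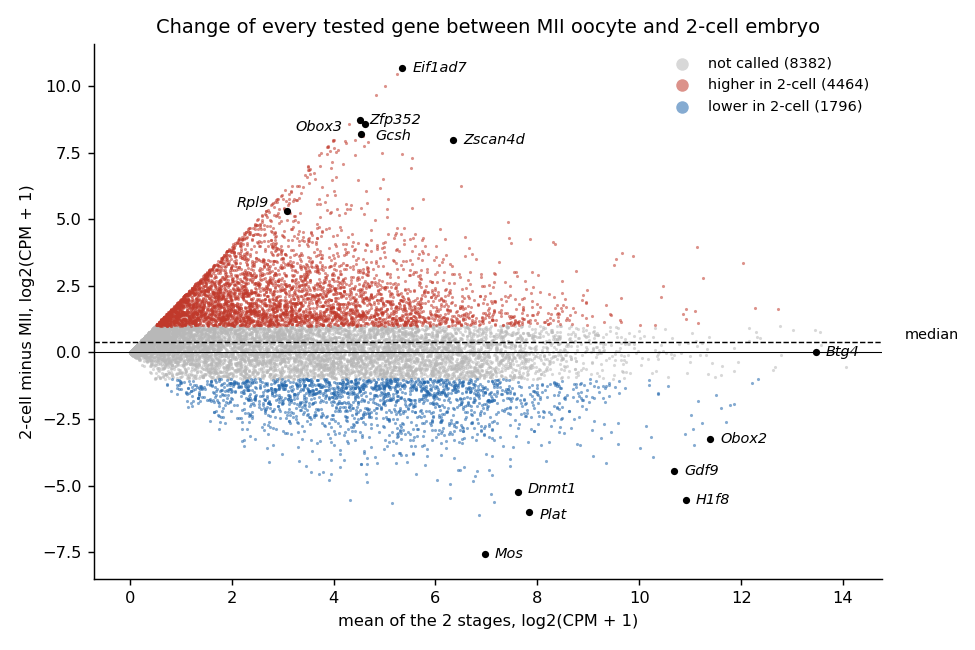
Change from the MII oocyte to the 2-cell embryo for 14642 genes, on the log2(CPM + 1) scale, against the mean level over both stages (log2(CPM + 1)). Each point is a gene, coloured by its call; the dashed line is the median change of 0.40. Rises reach 10.67 and falls -7.59, and 136 genes rose by at least 5 against 10 that fell as far.

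The largest rises were of genes at or near 0 in the egg. Of the 12 largest rises, 5 were Eif1ad genes, retrogene-like relatives of the translation initiation factor Eif1a. Eif1ad7 had 0 reads in all 4 MII libraries and 1163, 1896, 1794 and 1791 CPM in 2-cell libraries E to H. Its change was 10.67 (SE 0.30, adjusted p = 5.6e-26), at least 11112-fold against a floor of 3 reads per MII library. Eif1ad3, Eif1ad8, Eif1ad6 and Eif1ad4 were likewise at 0 in every MII library and reached means of 1033, 818, 389 and 253 CPM in 2-cell embryos (changes of 9.99, 9.67, 8.59 and 7.98). These genes are close copies of each other, so how reads were divided among them is uncertain. In the zygote none of the 5 passed 0.0948 CPM in any library, and in the 4-cell embryo their means were back between 0.569 and 7.44 CPM.

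Zfp352, a zinc finger gene used as a marker of the 2-cell state, had 0.175, 0, 0.0938 and 0.158 CPM in MII libraries A to D. In 2-cell libraries E to H it had 433, 455, 552 and 428 CPM, a change of 8.72 (SE 0.36, adjusted p = 1.8e-21). Zscan4d, of the Zscan4 cluster that acts in telomere maintenance and genome stability, had 2.15, 2.56, 3.47 and 9.56 CPM in MII and 1059, 1187, 1572 and 1075 CPM in 2-cell libraries. Zscan4d changed by 7.98 (SE 0.33, adjusted p = 3.8e-21) and its neighbour Zscan4a by 7.89 (SE 0.29, adjusted p = 7.4e-23), from a mean of 0.691 to 382 CPM. Zscan4 genes too are near-identical copies. Usp17lb, a deubiquitinase of the Usp17-like family, rose from 0.439 ± 0.321 to 398 ± 79.4 CPM (SD, n = 4), a change of 8.12. Each gene of this paragraph was picked among those in which the 2 stages did not overlap, as held for 60.1% of all genes tested.

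Other large rises were of genes that the embryo went on to express. Gcsh, the lipoyl carrier protein of the mitochondrial glycine cleavage system, had 0.263, 0.111, 0.188 and 0.423 CPM in MII and 498, 404, 544 and 467 CPM in 2-cell libraries. It changed by 8.59 (SE 0.16, adjusted p = 4.7e-31) and stood at a mean of 3399 CPM in the 4-cell embryo. Mt1, a metallothionein that binds zinc and copper, had means of 0.338 ± 0.173 and 341 ± 92.1 CPM (SD, n = 4), a change of 7.96 (SE 0.18, adjusted p = 4.3e-29), and 3303 CPM in the 4-cell embryo. Zfp352, Zscan4d and the Eif1ad genes were low again at that stage, Gcsh and Mt1 were not.

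Of 38 genes of the transient 2-cell programme, written as a list, 30 were tested. Of these, 28 (93.3%) were higher and 0 lower (up to 2 lower with another scaling or tool), beside 30.5% and 12.3% of all genes. Their median change was 6.69, beside 0.40 for all genes, and 28 were higher under every alternative tried. The 4-cell mean was at most 1/10 of the 2-cell mean in 22 of these 28, beside 852 of the 4464 genes that rose (19.1%). Eif4a3l1, a retrogene of the exon junction helicase Eif4a3, had 0.131, 0, 0.188 and 0.158 CPM in MII and 329, 200.2, 202 and 194 CPM in 2-cell libraries, a change of 7.66 (SE 0.34, adjusted p = 1.9e-20). The other two tested members were present in the egg. Trim75, a tripartite motif gene, had 449.7 ± 60.8 CPM in MII and 259.8 ± 21 CPM in 2-cell embryos (SD, n = 4), and Sp110, a nuclear body gene, 186 ± 46.2 and 98.7 ± 17.2 CPM. Their changes of -0.78 and -0.89 missed the call, but passed it downward under TMM scaling (-1.09 and -1.20), edgeR (-1.08 and -1.19) and DESeq2 (-1.22 and -1.32), and that of Sp110 also without MII C (-1.03).

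The promoters of Eif4a3l1, Zfp352, Zscan4d and of Obox3, a homeobox gene described below, are shown because they carry letters that factors of genome activation are known to bind. The sequences are the 250 bases upstream of the transcription start, from RefSeq on GRCm38.p6, matched to the deposited symbols by name. Capitals mark GATTNAATC (the core known for Dux), GGATTA (known for OBOX-type homeodomains; TAATCC on the opposite strand), AAGGTCA (known for NR5A2; TGACCTT on the opposite strand) and TATAAA, the site of the general factor TBP.
Eif4a3l1, chr6:136327289-136327538, plus strand: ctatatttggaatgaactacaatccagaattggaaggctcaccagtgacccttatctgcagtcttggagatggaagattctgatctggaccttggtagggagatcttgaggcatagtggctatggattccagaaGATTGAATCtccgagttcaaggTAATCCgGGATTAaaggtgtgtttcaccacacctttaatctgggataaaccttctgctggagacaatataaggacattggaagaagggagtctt
Obox3, chr7:15639778-15640027, minus strand: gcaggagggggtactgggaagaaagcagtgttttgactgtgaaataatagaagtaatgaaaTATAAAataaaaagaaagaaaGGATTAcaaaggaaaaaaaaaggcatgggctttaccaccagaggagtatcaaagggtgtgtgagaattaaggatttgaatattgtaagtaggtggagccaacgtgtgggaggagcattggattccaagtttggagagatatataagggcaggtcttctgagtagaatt
Zfp352, chr4:90218570-90218819, plus strand: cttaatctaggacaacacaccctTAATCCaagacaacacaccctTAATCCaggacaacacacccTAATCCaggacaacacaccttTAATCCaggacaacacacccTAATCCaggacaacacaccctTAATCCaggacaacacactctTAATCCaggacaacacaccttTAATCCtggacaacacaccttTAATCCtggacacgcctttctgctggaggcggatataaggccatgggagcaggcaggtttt
Zscan4d, chr7:11166149-11166398, minus strand: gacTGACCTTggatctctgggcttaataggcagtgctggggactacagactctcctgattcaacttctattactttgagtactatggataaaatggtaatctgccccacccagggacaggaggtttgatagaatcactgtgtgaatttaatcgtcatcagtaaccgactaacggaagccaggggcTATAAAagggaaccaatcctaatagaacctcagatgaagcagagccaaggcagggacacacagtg

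Zfp352 held TAATCC 9 times between bases -227 and -56, in a repeated unit. Eif4a3l1 held GATTNAATC at bases -116 to -108 and GGATTA once on each strand, at -94 to -89 and -87 to -82. Obox3 held TATAAA at -189 to -184 and GGATTA at -168 to -163, and Zscan4d held AAGGTCA on the opposite strand at -247 to -241 and TATAAA at -65 to -60. Over windows of 300 bases (250 before and 50 after the start), searched on both strands with overlaps between motifs allowed, GATTNAATC was in 8.14% of the 86 promoters of genes that rose by at least 5. It was in 1.97% of the 558 for a rise of at least 3, in 0.553% of all 3437 for genes that rose, in 0.0714% of 1401 for genes that fell and in 0.281% of all 27025 promoters. GGATTA was in 18.6%, 11.6%, 7.33%, 4.78% and 7.16% of the same sets, and TATAAA in 17.4% of the 86 and 14.2% of all promoters. Among the 11206 tested genes with a promoter, GATTNAATC was in 0.232%, GGATTA in 5.78% and TATAAA in 7.59%. The median number of CG dinucleotides per window was 9.5 in those 86, 20 over all 11206 tested genes with a promoter and 7 over the whole promoter table. A promoter was matched for 76.5% of genes tested and 63.2% of those that rose by at least 5, under the 80% at which a comparison over a set would hold, so the shares describe these promoters alone; a match is a run of letters, not a binding site.

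**Figure D2:**
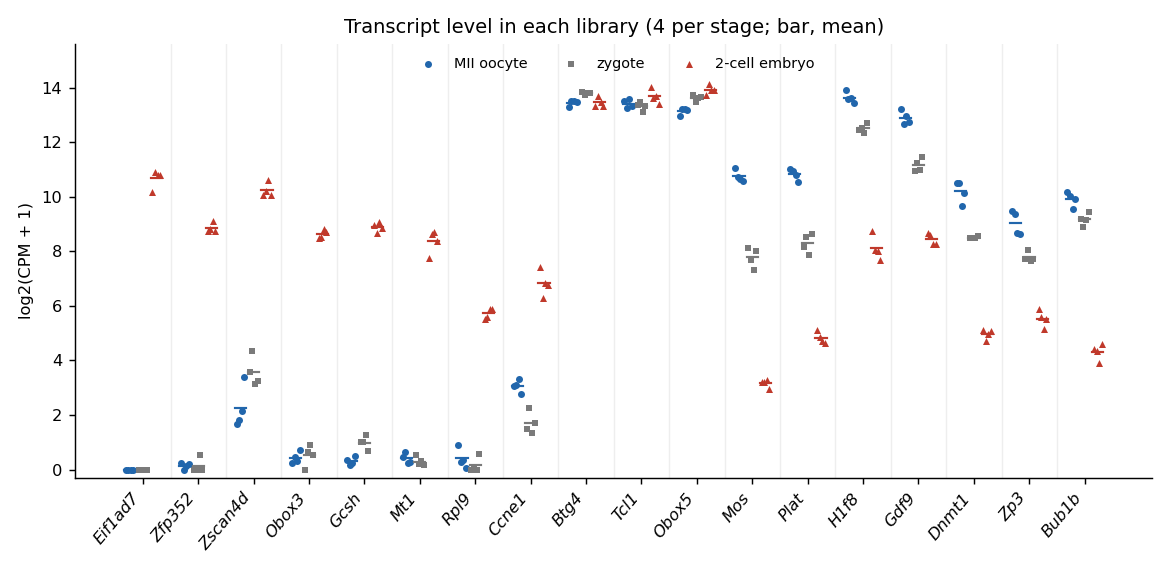
Level of 18 genes, as log2(CPM + 1), in each of the 4 MII, 4 zygote and 4 2-cell transcriptome libraries; each point is a library and each bar the mean of its stage. Eif1ad7, Zfp352 and Obox3 are at or near 0 in MII and zygote libraries and high in all 4 2-cell libraries, Mos and H1f8 fall stepwise, and Btg4 and Tcl1 overlap between MII and 2-cell libraries.

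Transcription factors tied to genome activation changed in both directions. Of 38 tested, 19 rose (50%) and 4 fell (10.5%), beside 30.5% and 12.3% of all genes, with a median change of 1.06. Of the 19 that rose, 11 (57.9%) had a mean under 1 CPM in the GV oocyte, beside 24.3% of all genes that rose and 21.4% of all genes tested. Crxos, a homeobox gene, had 0 reads in all MII libraries and 168, 227, 239 and 209.8 CPM in 2-cell libraries E to H. Its change was 7.71 (SE 0.15, adjusted p = 3.1e-30), at least 1411-fold, and its 4-cell mean was 2796 CPM. Gabpa, an ETS factor that drives housekeeping and mitochondrial genes, had 0.832, 0.892, 0 and 0.951 CPM in MII and 243, 266, 342 and 245 CPM in 2-cell libraries, a change of 7.40 (SE 0.24, adjusted p = 1.8e-24). Dppa4, a chromatin factor of pluripotent cells, rose from 1.48 ± 0.464 to 95.4 ± 14.5 CPM (SD, n = 4; change 5.29). Its partner Dppa2 was already at 131 ± 14.1 CPM in MII, and at 210.3 ± 11.4 CPM in 2-cell embryos its change of 0.68 missed the call.

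The Obox family of homeobox genes split into maternal and embryonic members. Obox3 had 0.175, 0.39, 0.235 and 0.634 CPM in MII and 357, 368, 447 and 422 CPM in 2-cell libraries, a change of 8.21 (SE 0.25, adjusted p = 2.6e-25). Obox6 rose from 0.0974 ± 0.0934 to 211 ± 49.4 CPM (SD, n = 4; change 7.57, SE 0.26) and stood at 1702 CPM in the 4-cell embryo, where Obox3 was at 3.26 CPM. Obox2 went the other way, from 7271, 8155, 8911 and 8576 CPM in MII to 760.2, 1004, 898 and 798 CPM in 2-cell libraries, a change of -3.25 (SE 0.25, adjusted p = 1.2e-13). Obox5 had 9070.5 ± 744 CPM in MII and 15615 ± 1767 CPM in 2-cell embryos and missed the call with a change of 0.78 (adjusted p = 7.9e-04). Obox1 fell by 1.00, from 7333 ± 741 to 3658 ± 416 CPM, at the edge of the call. It was not called without MII C (-0.97), MII D (-0.96) or 2-cell G (-0.93), without 18S RNA (-0.96) or after quantile normalisation (-0.48). Obox7, at 1170.5 ± 96.1 and 596 ± 45.1 CPM, missed the call at -0.97 and passed it without MII A (-1.03) or 2-cell G (-1.01), with edgeR (-1.25) and DESeq2 (-1.39) and after TMM scaling (-1.28). Obox2, Obox1, Obox5 and Obox7 were all under 10 CPM in the 4-cell embryo. The family members are similar in sequence, so reads may be divided among them with error.

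Klf17 and Nfya, a Krüppel-like factor and a CCAAT-binding subunit, fell. Klf17 had 1056, 794, 855 and 781 CPM in MII and 334, 206, 238 and 232 CPM in 2-cell libraries, a change of -1.80 (SE 0.24, adjusted p = 4.2e-08). Nfya changed by -1.61 (SE 0.21, adjusted p = 3.1e-08), from 589 ± 185 to 192 ± 68.3 CPM (SD, n = 4). In both genes the lowest MII library was above the highest 2-cell library.

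The RNA polymerases and their factors showed rises and falls within single complexes. Of 44 genes of RNA polymerase II and its general factors 16 rose (36.4%) and 6 fell (13.6%), shares near the 30.5% and 12.3% of all genes, with a median change of 0.23. The falls numbered 11 after quantile normalisation, 12 after TMM scaling, 11 with edgeR and 13 with DESeq2. Of 29 of RNA polymerases I and III 12 rose (41.4%) and 5 fell (17.2%), or 9 each after quantile normalisation, with a median of 0.83. The lowest medians over the alternatives were -0.17 and -0.08. Supt4a, a subunit of the DSIF elongation factor, rose from 4.47, 3.85, 6.33 and 4.33 CPM in MII to 174, 185, 221 and 183 CPM in 2-cell libraries, a change of 5.07 (SE 0.13, adjusted p = 3.8e-27). Polr2e, a subunit shared by the 3 nuclear polymerases, rose from 9.79 ± 2.26 to 117 ± 23.5 CPM (SD, n = 4; change 3.46). Polr2b, the second largest subunit of polymerase II, fell from 107, 115, 74 and 106 to 32, 28.2, 46.5 and 29 CPM, a change of -1.55 (SE 0.16, adjusted p = 1.8e-10). Polr2c, another core subunit, had 1230.3 ± 145 and 1309 ± 242 CPM and overlapping libraries. In polymerase I, Polr1h rose by 5.23 (0.451 ± 0.233 to 53.2 ± 6.02 CPM) and Polr1c by 4.30 (1.88 ± 0.54 to 56.3 ± 14.4 CPM). The largest subunit, Polr1a, was at 14.8 ± 3.42 and 6.89 ± 1.81 CPM, a change of -1.01. Its call was lost without MII A (-0.95), MII B (-0.92), MII D (-0.99), 2-cell G (-0.99) or 2-cell H (-0.86), and without 18S RNA (-0.97).

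Most ribosomal protein genes rose. Of 81 tested, 66 (81.5%) were higher and 0 lower, beside 30.5% and 12.3% of all genes, with a median change of 2.46. Across the alternatives 56 to 68 were higher and at most 1 lower. Rpl9 had 0.876, 0.223, 0.281 and 0.0528 CPM in MII and 45.2, 47.7, 58.8 and 58.8 CPM in 2-cell libraries, a change of 5.33 (SE 0.23, adjusted p = 8.3e-21). Rps27a, a ubiquitin fusion, had 0.394, 0.836, 0.704 and 0.423 CPM in MII and 45.7, 49.3, 67.5 and 55 CPM in 2-cell libraries, a change of 5.12 (SE 0.15, adjusted p = 2.5e-25). Rps19 rose from 0.82 ± 0.38 to 53 ± 4.64 CPM (SD, n = 4; change 4.91). A pair of members that missed the call stood higher in the egg. Rpl17 had 195 ± 23.6 CPM in MII and 117 ± 4.89 CPM in 2-cell embryos; its change of -0.73 missed the call and passed it after TMM scaling (-1.03), with edgeR (-1.01) and with DESeq2 (-1.14). Rps15a had 71.2 ± 2.62 and 64.5 ± 5.11 CPM. Ribosomal protein genes have many processed pseudogenes, so their reads may be shared with copies.

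Many of these genes were higher in the stage before the egg. Among the 66 ribosomal protein genes that rose, 48 (72.7%) had a mean in the GV oocyte, the stage before maturation, at or above that of the 2-cell embryo, and the median of their means was 52.8 CPM in GV, 2.72 in MII, 4.28 in the zygote, 35.7 in 2-cell and 1109 in 4-cell embryos. Over all 4464 genes that rose, 1334 (29.9%) were as high in the GV oocyte as in the 2-cell embryo, beside 46.8% of all genes tested, and this was so for 3 of the 136 that rose by at least 5 (2.21%). Rps27a had 128 CPM in the GV oocyte, Rps19 51.3, Supt4a 126, Polr2e 163 and Polr1h 68.8 CPM. By contrast Rpl9 had 2.63 CPM there, Polr1c 6.68 and Gabpa 1.42 CPM. The GV values are means of 4 libraries and were not tested here against the 2-cell values.

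Genes of the nucleolus and of rRNA processing went both ways, with 16 of 62 higher (25.8%) and 19 lower (30.6%), beside 30.5% and 12.3% of all genes, and a median change of -0.05. Nop16, a late factor of the large subunit, had 0.0438, 0.111, 0 and 0 CPM in MII and 133, 104, 136 and 109 CPM in 2-cell libraries, a change of 6.86 (SE 0.15, adjusted p = 3.2e-29). Nhp2, of the box H/ACA particles that guide pseudouridylation, rose from 2.04 ± 1.23 to 119 ± 22.8 CPM (SD, n = 4; change 5.38). Gnl2, a GTPase of large subunit assembly, fell from 202, 172, 154 and 192 CPM in MII to 10.4, 5.67, 12.1 and 10.2 CPM in 2-cell libraries, a change of -4.13 (SE 0.16, adjusted p = 3.7e-22). Bms1, a GTPase of the small subunit processome, fell from 181 ± 40.5 to 15.3 ± 2.3 CPM (change -3.46). The abundant chaperone Npm1 had 904 ± 52.2 and 851 ± 89.2 CPM. In the 4-cell embryo all 19 that fell had means at or above their 2-cell level and 15 at or above their MII level, with Gnl2 at 220.2 CPM, differences that were not tested here. For all 1796 genes that fell these shares were 47.6% and 18.7%.

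The largest fall was that of Mos, the kinase that holds the egg in metaphase through the MAP kinase pathway. Mos had 2126, 1694, 1616 and 1527 CPM in MII libraries A to D and 8.34, 8.2, 8.63 and 6.85 CPM in 2-cell libraries E to H. It fell by 7.59 on the log2 scale (SE 0.30, adjusted p = 1.1e-21), a ratio of means of 217. Plat, the tissue plasminogen activator whose mRNA is a classic case of tail control in maturing oocytes, had 2078, 1964, 1793 and 1476 CPM in MII and 33.5, 28.4, 25.6 and 23.9 CPM in 2-cell libraries, a change of -5.99 (SE 0.27, adjusted p = 3.7e-20). H1f8, the linker histone of the oocyte, fell from 15598, 12336, 12454 and 10966 CPM to 424, 262, 256 and 203 CPM, a change of -5.53 (SE 0.22, adjusted p = 9.2e-22). Mos, Plat and H1f8 were picked among genes without overlap, and the highest 2-cell library of each was far below its lowest MII library.

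The rest of the 12 largest falls, named among genes without overlap between the stages, covered the spindle, the egg surface, signalling and chromatin. Bub1b, the BubR1 kinase of the spindle checkpoint, fell from 983 ± 176 to 19.3 ± 3.91 CPM (SD, n = 4; change -5.60). Astl, ovastacin, the cortical granule protease that cleaves the zona after fertilisation, fell from 519 ± 94.5 to 10.8 ± 3.02 CPM (change -5.48). Txnip, an inhibitor of thioredoxin and of glucose uptake, fell from 863 ± 89.7 to 20.4 ± 1.68 CPM (change -5.34). Dnmt1, the maintenance DNA methyltransferase, had 1465, 1435, 805 and 1132 CPM in MII and 33.9, 25.3, 30.5 and 32.7 CPM in 2-cell libraries, a change of -5.23 (SE 0.18, adjusted p = 6.9e-24). Jkamp, a membrane protein of the endoplasmic reticulum, changed by -5.66, Leprot, of endosomal receptor trafficking, by -5.52, Tpra1 by -4.93, the nucleotide sugar transporter Slc35b3 by -4.85 and Saraf, a regulator of store-operated calcium entry, by -4.84.

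The ends of the 3′ UTRs of 4 of these genes are shown because cytoplasmic polyadenylation elements near the end of an mRNA are known to govern maternal messages. In each window of 30 bases the marked element starts in the last 100 bases of the 3′ UTR of the GENCODE M21 transcript with the longest coding sequence, on GRCm38. Capitals mark TTTTAT or TTTTAAT, the DNA letters of that element, searched on the transcript strand.
Plat, chr8:22782744-22782773, plus strand: agtatatttataTTTTAATctattttagtt
Bub1b, chr2:118641553-118641582, plus strand: tttcactgtgtaTTTTATaataaaatagtt
Txnip, chr3:96561836-96561865, plus strand: aaaaataaagttTTTTAATgacaaaaataa
Dnmt1, chr9:20907239-20907268, minus strand: gacttgatgtagTTTTATatgttgtaatat

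Leprot and Tpra1 held the element in the same stretch too. Mos, Astl, Slc35b3 and Saraf did not in the model used, Jkamp has a shorter 3′ UTR and H1f8 had no matched transcript. Among the genes that fell, 30.9% of 1637 with a 3′ UTR of at least 100 bases held TTTTAT or TTTTAAT in its last 100 bases, and of those that fell by at least 3, 35.9% of 153. The share was 13.9% of 3682 genes that rose, 13.0% of 592 that rose by at least 3, and 19.2% of 12210 genes tested. The letters are AT-rich, and the median AT content of the 3′ UTR was 57.4% in genes that fell, 54.8% in those that rose and 55.5% over all, so base content moved with the element and its part was not tested. TGTANATA, the letters bound by Pumilio proteins, was searched over the whole 3′ UTR. It was in 26.1% of the genes that fell, 22.0% of those that rose and 24.5% of all. It was in 19.6% of those that fell by at least 3 and 17.2% of those that rose by at least 3. Median 3′ UTR lengths were 880, 768, 877, 614.5 and 552.5 bases in the same order, and the part of length was not tested. Genes that fell had longer coding sequences, with a median of 1710 bases, than genes that rose, with 1089, beside 1392 over all.

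Of 32 metaphase and spindle genes 12 were lower (37.5%, beside 12.3% of all genes), 5 higher and 15 not called, with a median change of -0.62. Prc1, which bundles the central spindle, fell from 1209, 1412, 1651 and 1625 CPM to 230.4, 172, 212 and 163 CPM, a change of -2.92 (SE 0.18, adjusted p = 2.7e-16). Aurkc, the Aurora kinase of meiosis, fell by 2.92 (SE 0.22, adjusted p = 3.7e-14), from 374 ± 37.1 to 49.3 ± 10.3 CPM. Cdk1, the kinase of maturation promoting factor, went up: it had 35.8, 28.8, 15.1 and 22.2 CPM in MII and 227, 228, 286 and 225 CPM in 2-cell libraries, a change of 3.25 (SE 0.22, adjusted p = 4.5e-15), beside 256 CPM in the GV oocyte. Cdc25c, the phosphatase that activates Cdk1, rose by 3.66 (3.51 ± 1.13 to 55.1 ± 8.1 CPM). Birc5, survivin, rose by 2.18 (224 ± 11.1 to 1016 ± 105 CPM). Cyclin B1, securin, Mad2 and Wee2 were not called. Ccnb1 had 7992 ± 1211 and 5015 ± 282 CPM and missed the call at -0.66, passing it with DESeq2 alone (-1.11); Pttg1 had 7781 ± 922 and 5399 ± 1147 CPM. Mad2l1 had 1927 ± 354 and 2553 ± 219 CPM, and Wee2 710.3 ± 20.5 and 1007 ± 82.2 CPM.

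Of 21 genes of oocyte growth and the egg coat 9 were lower (42.9%) and 3 higher (14.3%), beside 12.3% and 30.5% of all genes, with a median change of -0.40. Gdf9, the growth factor of the oocyte, fell from 9445, 6559, 8023 and 6827 CPM to 409, 389, 304 and 307 CPM, a change of -4.45 (SE 0.24, adjusted p = 7.5e-18). Its close relative and partner Bmp15 did not pass the call: it had 2838, 3379, 3270.1 and 3116 CPM in MII and 2214, 2537, 2320.0 and 2458 CPM in 2-cell libraries, a change of -0.40 (adjusted p = 0.10) with no overlap. The zona genes Zp1 and Zp3 fell by 3.80 and 3.5 on the log2 scale, to means of 32.1 and 46.2 CPM, and the oocyte-specific Oas1d by 2.65, to 963 CPM. Tcl1, a coactivator of AKT kinase, had 10992 ± 1229.6 CPM in MII and 13388 ± 2524 CPM in 2-cell embryos, and Oosp3, an oocyte-secreted protein, had 1375 ± 238 and 1464 ± 376 CPM; both overlapped.

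The subcortical maternal complex, a protein assembly under the egg membrane needed for the first cleavages, and related Nlrp genes had 10 of 16 members lower (62.5%) and 0 higher (1 after quantile normalisation), beside 12.3% and 30.5% of all genes, with a median change of -1.59. Nlrp5, known as Mater, fell from 764, 1056, 823 and 945 CPM to 83.8, 84.6, 64.6 and 82 CPM, a change of -3.49 (SE 0.30, adjusted p = 1.4e-12). Padi6 fell by 2.96 (686 ± 167 to 86.6 ± 17.6 CPM), Tle6 by 2.86 (368 ± 70.9 to 50.4 ± 15 CPM) and Nlrp14 by 2.08 (6461 ± 999 to 1515 ± 112 CPM). Zbed3, also of the complex, had 24534, 15812, 22310.0 and 18797 CPM in MII and 21620.3, 10459, 12491 and 12464 CPM in 2-cell libraries, overlapping through 2-cell E, with a change of -0.55. Nlrp4f was at 1807 ± 229 and 1785 ± 135 CPM. Members of the complex thus ranged from a clear fall to a change within the spread between libraries.

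Factors that store and translate maternal mRNA were divided, with 7 of 23 higher (30.4%) and 8 lower (34.8%), beside 30.5% and 12.3% of all genes, and a median change of 0.02. Zar1, an RNA-binding protein of the egg's storage compartment, fell from 1171, 546, 627 and 529 CPM to 46, 49.4, 32.7 and 40.4 CPM, a change of -4.0 (SE 0.23, adjusted p = 4.0e-17). Cpeb1, which binds the polyadenylation element, fell from 217 ± 18 to 26.8 ± 0.958 CPM (change -2.97) and Igf2bp2 from 323 ± 36.9 to 42.2 ± 4.97 CPM (change -2.91). Ybx2, the germ cell Y-box protein that coats stored mRNA, rose from 8.5, 6.08, 4.88 and 4.7 CPM to 56.1, 31.5, 30 and 30.8 CPM (change 2.42, SE 0.24, adjusted p = 4.1e-11). Cpeb2, a relative of Cpeb1, rose from 1.33 ± 0.277 to 13.2 ± 2.78 CPM (change 2.59).

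The machinery of mRNA decay had 6 of 36 members higher (16.7%) and 9 lower (25%), beside 30.5% and 12.3% of all genes, with a median change of -0.12. Another scaling or tool gave 12 to 15 lower. Pabpn1l, a nuclear-type poly(A)-binding protein of the oocyte and an adapter for decay, fell from 608, 489, 617 and 443 CPM to 28, 23, 18.8 and 14.7 CPM (change -4.63, SE 0.19, adjusted p = 1.4e-21). Dcp1a, of the decapping complex, fell by 2.45 (838 ± 128 to 152 ± 17 CPM). Tob1, which recruits the deadenylase, rose by 2.95 (2.95 ± 0.67 to 29.9 ± 7.78 CPM), and Zfp36l2, a binder of AU-rich elements, by 2.50 (1.69 ± 0.785 to 14.2 ± 3.97 CPM). Btg4, the adapter that brings the deadenylase to maternal mRNA, differed by less than the spread between libraries: it had 10018, 11788, 11601 and 11245 CPM in MII and 10372, 13257, 11486 and 10379 CPM in 2-cell libraries, a change of 0.02 (SE 0.21, adjusted p = 0.93). The deadenylase subunits Cnot7 and Cnot6l had 1776 ± 381 and 403 ± 62.5 CPM in MII and 2234 ± 328 and 605 ± 97.3 CPM in 2-cell embryos, and missed the call.

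Among abundant maternal transcripts, many were still there at the 2-cell stage. Of 127 genes with an MII mean of at least 1000 CPM, 56 were lower, 8 were higher and 63 were not called. Over all genes tested 12.3% were lower and 30.5% higher, but the 127 were picked by their MII level, a choice that favours falls. Of the 63 not called, 42 had a 4-cell mean of at most 1/10 of the 2-cell mean and 26 of at most 1/100. A 4-cell mean of at most 1/10 was found in 19.2% of all genes not called. Btg4 went from 11374 CPM in 2-cell to 17.9 CPM in 4-cell embryos, Tcl1 from 13388 to 14.4, Obox5 from 15615 to 9.62, Zbed3 from 14259 to 30.4 and Nlrp4f from 1785 to 6.69 CPM. In the map of 8 stages these genes and Npm2 are drawn between the largest rises and the largest falls, an order set by hand.

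**Figure D3:**
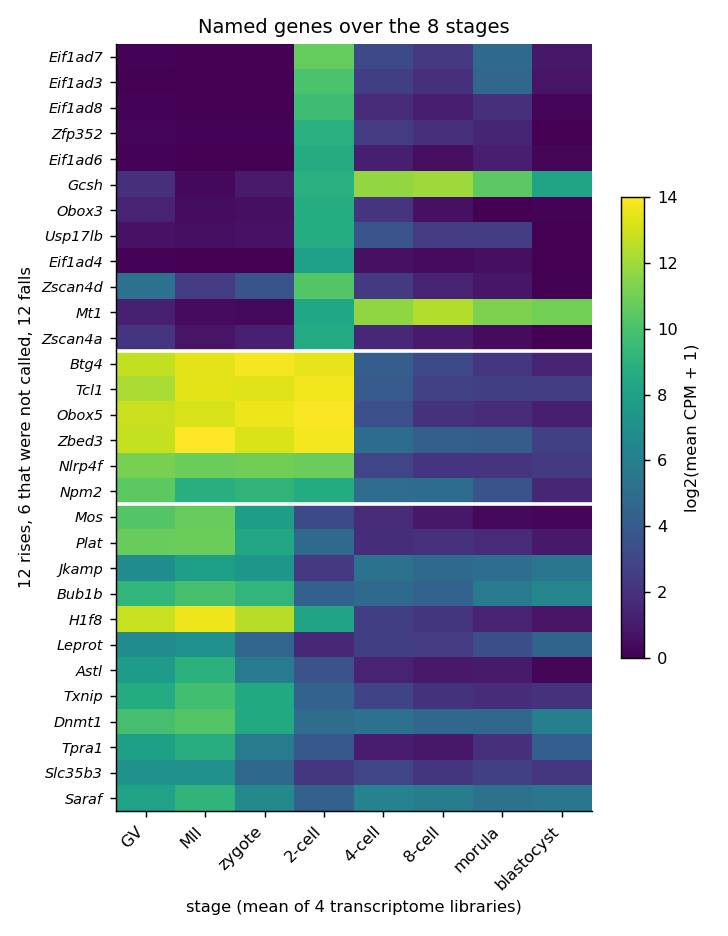
Mean level, as log2(mean CPM + 1), over the 8 stages (4 transcriptome libraries each). Rows are 12 genes with the largest rises, 6 chosen genes that were not called and 12 genes with the largest falls, in that set order. The 6 in the middle, such as Btg4 and Tcl1, are not called between MII and the 2-cell embryo and are lower in the 4-cell embryo.

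Pairs of a germline form and its somatic counterpart were also followed. Of 27 genes in such pairs or groups 9 rose (33.3%) and 2 fell (7.41%), shares near those of all genes, with a median change of 0.63. The falls numbered 5 after TMM scaling and with edgeR and 6 with DESeq2. Eif4e, the cap-binding protein, rose from 354, 416, 384 and 412 CPM to 1398, 1689, 1745 and 1577 CPM (change 2.03, SE 0.17, adjusted p = 6.3e-13). Its oocyte form Eif4e1b rose as well, from 53.2 ± 22.7 to 217 ± 107 CPM (change 1.98), with 377 CPM in 2-cell E and 157 to 176 CPM in the others. Pabpc1, the somatic poly(A)-binding protein, rose by 2.93 (5.59 ± 2.83 to 45.6 ± 7.03 CPM), and Wee1, the somatic counterpart of Wee2, by 2.51 (2.87 ± 1.23 to 20.7 ± 5.5 CPM). The importins Kpna2 and Kpna7 missed the call, at 459 ± 20.5 and 733 ± 90.3 CPM for Kpna2 and 694 ± 15.5 and 402 ± 70.7 CPM for the oocyte form Kpna7. Kpna7 passed it downward after TMM scaling (-1.11), with edgeR (-1.07) and with DESeq2 (-1.21).

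Of 45 DNA replication genes 5 were higher (11.1%) and 8 lower (17.8%), beside 30.5% and 12.3% of all genes, with a median change of -0.37. The number lower was 15 after TMM scaling, 16 with edgeR and 20 with DESeq2, where 3 were higher. Rpa2, of the single-strand binding complex, rose from 3.72, 2.9, 3.75 and 5.02 to 73.1, 42.9, 63.3 and 56.1 CPM (change 3.62). Prim2, the large primase subunit, fell from 111 ± 12.7 to 14 ± 3.05 CPM (change -2.92), and the helicase subunits Mcm4 and Mcm7 fell by 2.25 and 2.22. Regulators of G1 and S phase had 9 of 21 higher (42.9%) and 2 lower (9.52%, or 4 genes with DESeq2), with a median of 0.84. Ccne1, cyclin E1, rose from 7.46 ± 1.33 to 117 ± 39.3 CPM (change 3.76, SE 0.22, adjusted p = 4.3e-17). Its kinase Cdk2 rose by 3.53, Cdk4 by 3.08 and the inhibitor Cdkn1a by 3.08, the last from 1.58 ± 0.457 to 20.7 ± 3.2 CPM. Cdc7, the kinase that fires origins, fell by 1.68 on the log2 scale, from 37.6 ± 7.88 to 11 ± 2.04 CPM.

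In chromatin, 13 of 52 histone modifiers and assembly factors rose (25%) and 8 fell (15.4%), shares near the 30.5% and 12.3% of all genes, with a median change of 0.19. Hdac1, a histone deacetylase, rose from 15.7, 12, 9.33 and 14.5 CPM to 118, 104, 153 and 103 CPM (change 3.13, SE 0.18, adjusted p = 3.7e-17). Suv39h1, the H3K9 methyltransferase, rose by 3.52 (0.174 ± 0.0647 to 12.5 ± 1.95 CPM) and Kdm5b, an H3K4 demethylase, by 2.49 (10 ± 2.36 to 60.5 ± 10.1 CPM). The 2 large subunits of the chromatin assembly factor CAF-1 moved apart: Chaf1b rose from 2.3 ± 0.266 to 48.9 ± 15 CPM (change 3.88) and Chaf1a fell from 109 ± 25.6 to 13.3 ± 3.38 CPM (change -2.94). Ezh2, the Polycomb methyltransferase, had 594 ± 22.2 and 582 ± 33.5 CPM. Among 15 histone variants and chaperones, 4 rose (26.7%, near the share of all genes) and H1f8 fell; 3 fell after quantile normalisation or TMM scaling and with edgeR or DESeq2. H2az1 and H2az2, which encode H2A.Z, rose by 3.39 (45.7 ± 4.91 to 493 ± 85.7 CPM) and 4.61 (4.4 ± 1.03 to 129.7 ± 16.6 CPM). Npm2, the oocyte nucleoplasmin, had 457 ± 95.1 and 395 ± 44.3 CPM, and H3f3b, an H3.3 gene, 2441 ± 339.5 and 2244 ± 125 CPM.

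Of 12 genes of DNA methylation, 5 fell (41.7%) and 1 rose (8.33%), beside 12.3% and 30.5% of all genes, with a median change of -0.40. Beside Dnmt1, the falls were of its partner Uhrf1 (-1.80; 205 ± 39.4 to 57.8 ± 10.5 CPM), the de novo enzyme Dnmt3a (-1.58; 92.6 ± 17.8 to 29.8 ± 2.13 CPM), the dioxygenase of the zygote Tet3 (-2.08; 505 ± 141 to 117 ± 22.7 CPM) and the corepressor Trim28 (-1.28; 72.3 ± 24.2 to 29.1 ± 8.95 CPM). Dnmt3l, a cofactor of the de novo enzymes, rose from 22.7, 16.1, 13.5 and 13 to 87.6, 50.8, 65.7 and 51.6 CPM (change 1.90, SE 0.20, adjusted p = 2.4e-10). Dppa3, which shields the maternal genome from demethylation, had 3848 ± 407 and 6598 ± 694 CPM and missed the call at 0.78. Tet1, Tet2, Zfp57 and Zfp445 changed by 0.32, 0.80, -0.15 and 0.64 and were not called. Dnmt3b, at 11.2 ± 4.61 and 6.51 ± 1.43 CPM, missed it at -0.65 and passed it with edgeR (-1.05), DESeq2 (-1.18) and quantile normalisation (-1.41).

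Of 34 genes of glycolysis and pyruvate use 18 were higher (52.9%) and 3 lower (8.82%), beside 30.5% and 12.3% of all genes, with a median change of 1.13. The number higher was 12 after quantile normalisation and 14 with DESeq2, where 5 were lower. The lactate dehydrogenases moved in opposite directions. Ldha had 0.263, 0, 0 and 0.475 CPM in MII and 39.1, 28.1, 28.5 and 30.8 CPM in 2-cell libraries, a change of 4.79 (SE 0.22, adjusted p = 8.7e-20). Ldhb, the egg's form, fell from 8175, 7791, 6795 and 5880.1 CPM to 2846, 1867, 1526 and 1532 CPM, a change of -1.92 (SE 0.25, adjusted p = 2.0e-08). The glycolytic enzymes Aldoa and Tpi1 rose by 4.42 (2.58 ± 0.41 to 77.1 ± 20.8 CPM) and 4.66 (1.58 ± 0.903 to 62.2 ± 8.75 CPM), beside 118 and 92.7 CPM in the GV oocyte. The glucose transporter Slc2a3 rose by 3.24 from 0.3 ± 0.194 to 11.6 ± 3.3 CPM, beside 0.221 CPM in the GV oocyte.

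The proteasome had 11 of 40 genes higher (27.5%) and 9 lower (22.5%), with a median change of 0.38. Heat shock proteins and the chaperonin had 7 of 24 higher (29.2%) and 5 lower (20.8%), with a median of 0.01. The shares higher are near the 30.5% of all genes, of which 12.3% were lower. The heat shock genes lower numbered 8 after TMM scaling and with edgeR and 10 with DESeq2. The catalytic subunit Psmb7 rose by 3.14 (1.2 ± 0.369 to 18.3 ± 2.72 CPM), beside 167 CPM in the GV oocyte, while Psma7, of the alpha ring, fell from 769, 629, 683 and 647 to 98, 105, 74.5 and 71.9 CPM (change -2.97, SE 0.12, adjusted p = 9.6e-22). Psme4, an activator cap, missed the call at 0.89. Hspa1b, an inducible HSP70 that marks early embryonic transcription, rose by 3.35 (0.117 ± 0.086 to 10.7 ± 3.25 CPM). Cct6a of the chaperonin rose by 3.37 (2.02 ± 0.54 to 30 ± 2.85 CPM). Hsp90aa1 fell from 3820.4, 4039, 2973 and 3556 CPM to 373, 379, 453 and 386 CPM (change -3.17, SE 0.14, adjusted p = 7.8e-21) and Hsp90ab1 by 1.72, from 663 ± 127 to 203 ± 55.8 CPM. At the 4-cell stage Hsp90ab1 was at 4307 CPM and Hsp90aa1 at 2666 CPM.

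**Figure D4:**
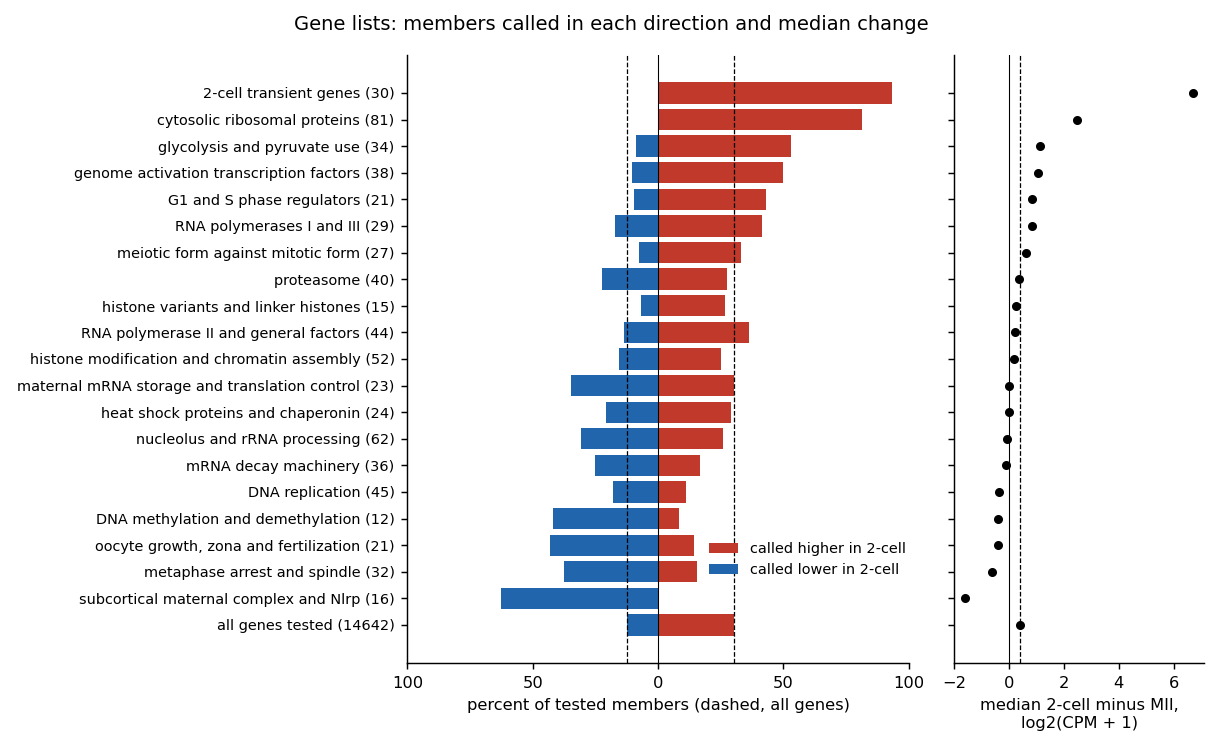
Left, percent of tested members of each gene list that were called higher or lower in the 2-cell embryo, with dashed lines at the 30.5% and 12.3% of all genes tested; right, the median change of each list on the log2(CPM + 1) scale. The transient 2-cell genes (28 of 30 higher) and ribosomal proteins (66 of 81 higher) lie far to the right, and the subcortical maternal complex (10 of 16 lower) to the left.

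Zygote levels were set between those of the egg and the 2-cell embryo. The place of a gene was given as a percent of the way from the MII mean (0) to the 2-cell mean (100) on the log2 scale, and limma tested the zygote against the midpoint at an adjusted p under 0.05. Over all genes tested, 11.7% of zygote levels were above the midpoint and 26.5% below. Of the 4464 genes that rose, the zygote was still nearer to the egg in 2396 (53.7%), nearer to the 2-cell embryo in 260 (5.82%), and neither in 1808, and the median place was 15.9%. Of the 1796 that fell, it was nearer to the egg in 730 (40.6%), nearer to the 2-cell embryo in 129 (7.18%), and neither in 937, with a median place of 31.9%. The zygote was beyond the egg, on the far side from the 2-cell embryo, in 1027 (23%) of the rises and 257 (14.3%) of the falls. Over all genes tested this was so in 4274 (29.2%).

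Individual genes followed different courses. The Eif1ad genes, Zfp352, Crxos and Nop16 stood within 1% of the way from the egg. Hormad1, a meiotic chromosome axis protein, was already at its 2-cell level, with 1.83 ± 0.394 CPM in MII, 49.8, 61.5, 56.4 and 58.5 CPM in the zygote and 57.2 ± 18.4 CPM in 2-cell embryos (change 4.30; zygote above the midpoint by 2.2, SE 0.26, adjusted p = 1.3e-08). Among the falls Mos had 281, 203, 157 and 256 CPM in the zygote, 39.2% of the way. Plat had a mean of 321 CPM (42.1%), Astl 52.7 (60.1%) and Zp1 71.4 CPM (70.6%). In limma's test Mos was above the midpoint (adjusted p = 0.013), while Plat (adjusted p = 0.12) and Astl (adjusted p = 0.092) were not separated from it.

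Other falling genes were still high in the zygote. Rgs2, a regulator of G protein signalling that restrains early calcium release in the egg, had 2834, 2755, 2551 and 2764 CPM in MII, 3489, 2924, 4221 and 3881 CPM in the zygote and 153, 176, 149 and 140.0 CPM in 2-cell embryos (change -4.14; zygote above the midpoint by 2.47, SE 0.22, adjusted p = 1.5e-11). Dnttip2, a nucleolar protein, had 602 ± 23.2 CPM in MII, a mean of 582 CPM in the zygote and 28 ± 8.45 CPM in 2-cell embryos. Ftdc1, a ferritin domain gene, had 125 ± 37.1, 247 and 14.5 ± 1.04 CPM in that order, and Jkamp 249 ± 24.6, 172 and 4.04 ± 1.2 CPM. Obox2 and Hsp90aa1, too, had zygote means (8427 and 4626 CPM) above those of the egg.

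**Figure D5:**
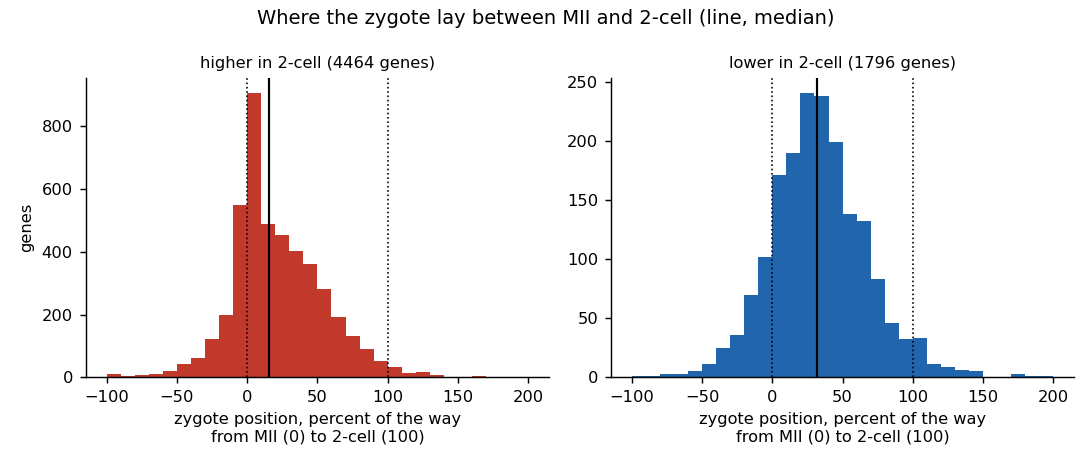
Place of the zygote between the MII oocyte (0%) and the 2-cell embryo (100%) on the log2(CPM + 1) scale, as histograms over the genes that rose and the genes that fell; the vertical line in each is the median, and values outside -100 to 200 are drawn at the edges. The median was 15.9% for rises and 31.9% for falls.

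The sucrose gradients were made from other pools of the same stages. The heavy side of the gradient (fractions 6 to 10 of 10, where transcripts with more ribosomes lie by convention) was averaged in each of 3 gradients per stage, as a description without a test. Of the transient genes, Eif1ad7 went from 0.00724 ± 0.0125 to 355 ± 126 CPM (SD, n = 3) in the heavy fractions, Zscan4d from 0.0484 ± 0.0838 to 518 ± 266 CPM and Eif4a3l1 from 0.298 ± 0.225 to 536 ± 136 CPM. Of the genes that fell, Mos went from 2399.7 ± 718 to 21 ± 17.8 CPM, Gdf9 from 12338 ± 2976 to 1029.8 ± 120.4 CPM and Zar1 from 5344 ± 732 to 261 ± 75.8 CPM. Of the genes not called in the transcriptome, some had higher means in the heavy fractions of 2-cell gradients: Tcl1 had 11403 ± 4683 and 25412 ± 7757 CPM, Btg4 1832 ± 102 and 3434 ± 838 CPM, Npm2 49.3 ± 14.4 and 469 ± 88.8 CPM and Obox5 987 ± 163 and 3644 ± 1442 CPM. Oosp3 had 899 ± 497 and 301 ± 76.8 CPM there.

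By list, heavy fractions and transcriptome gave these values side by side. The median change in heavy fractions was -0.34 over all genes tested, beside 0.40 in the transcriptome. For the transient 2-cell genes it was 5.57, beside 6.69. For the ribosomal proteins it was -0.08, beside 2.46, and in the light fractions (1 to 5) it was -1.15. Rps27a, with a rise of 5.12 in the transcriptome, had 8.56 ± 5.31 and 22.3 ± 7.99 CPM in heavy fractions, and Rps19 16.6 ± 9.9 and 69 ± 17.5 CPM. Proteasome genes had a median of -1.19 in heavy fractions and 0.38 in the transcriptome, and oocyte growth genes -1.48 and -0.40. Each fraction is scaled to its own total and the fractions are weighted equally, so these values describe the place of a gene among others in that part of the gradient.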

How the data were processed

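The authors deposited 1 table of CPM values per gene symbol and library, per the file headers. Its values in 9 columns, among them the 4 blastocyst transcriptomes, were recorded as a signal because repeated symbols lift their sums. These signal values were scaled to the library total by the authors before they were deposited, per the file headers, and none is an MII or 2-cell transcriptome; 1 of them, fraction 5 of a 2-cell gradient, entered a light mean. Per the submitters' processing notes, which give no order, Trim Galore 0.6.7, FastQC, HISAT2 2.2.1, featureCounts 2.0.1, edgeR and GRCm39 were used. Per the labels' protocols, amplified libraries were tagmented and sequenced as paired ends. Amplification without molecular identifiers means that read floors cover counting error only, and capture by poly(A) tail makes a level depend on the tail as well as on the amount.

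The table had 15854 symbols; 1 symbol was kept of each of 76 groups with identical values (159 symbols), which left 15771. Values were whole multiples of 1 read in 100% of cases within 0.05 reads. Replicate libraries were compared by chi-square of reads, which gave 12.5 to 63.2 per degree of freedom in MII and 13.8 to 56.3 in 2-cell pairs, so no pair was within sampling noise; the 3 pairs with 2-cell E gave 46.3 to 56.3 and the other 3 gave 13.8 to 16.1. The top 100 genes took 36.4 to 40.6% of MII and 34.8 to 38.0% of 2-cell reads, and 18S RNA 0.0211 to 0.0432% and 0.0409 to 0.0558%.

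The test was limma 3.58.1 (lmFit and eBayes with trend, R 4.3.3) on log2(CPM + 1) over 32 libraries, for genes with a CPM of at least 1 in at least 4 libraries, with Benjamini-Hochberg adjustment over 14642 genes. A change on this scale understates that of low genes. On simulated data with 200 changed genes among 14642, limma recovered 25.4%, 97.0% and 98.5% of those changed by 1, 2 and 3, and called 0.118% of unchanged genes. The changed genes were drawn among those not low in MII, with random directions, and all others had equal means in both stages. In the real data 42.8% of genes were called, mostly upward, so the simulated rate of false calls does not carry over to them. A true change of 1 lies at the cutoff itself, which limits its recovery. edgeR 4.0.16 and DESeq2 1.42.0 were run on the recovered reads as alternatives, beside other scalings, filters, pseudocounts, thresholds and fits without each library. A fold against libraries with at most 3 reads each is a lower bound.

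Members, gene lists and tests were chosen with earlier results of these data known. Named genes are the 12 largest rises and falls among called genes with a mean of at least 20 CPM in the higher group and no overlap, predicted symbols aside (5 rises and 1 fall skipped); all of a list with at most 12 members, otherwise up to 5 called rises, 5 called falls and 4 uncalled genes of highest CPM; and the 5 largest deviations of the zygote from the midpoint each way. From these a subset is printed. Promoters and transcripts were matched by symbol (76.5% and 90.1% of genes tested). Mitochondrially encoded genes, Dux and most cumulus and sperm markers were not analysed here.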

Additional observations from a re-analysis of the deposited data

Results flagged for a closer look

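In groups of 4 libraries of the named genes, 23 of 291 (7.9%) had 1 library far from the other 3, where chance gives about 1 in 20. MII A was lowest in Obox5 (7967 CPM, others 9315 to 9582), Obox7 (1028, others 1202 to 1236), Npm1 (826, others 926 to 936) and H3f3b (1932, others 2594 to 2623), and highest in Igf2bp2 (378, others 300.0 to 309.7) and Tpi1 (2.94, others 1.06 to 1.17). MII C was lowest in Gabpa (0 CPM, others 0.832 to 0.951), Dppa2 (110.2, others 137 to 140.3), Polr2b (74.0, others 106.5 to 114.6), Bms1 (121, others 196 to 205) and Psme4 (242, others 346 to 360.5). The 2-cell library E was lowest in Eif1ad7 (1163 CPM, others 1791 to 1896) and Eif1ad3 (758, others 1088 to 1146), and highest in Eif4a3l1 (329, others 194 to 202), Eif4e1b (377, others 157 to 176), Ybx2 (56.1, others 30.0 to 31.5) and Kpna7 (507, others 356 to 373). The 2-cell library G was lowest in Rps15a (56.9 CPM, others 66.2 to 67.6), Nlrp5 (64.6, others 82.0 to 84.6) and Cdc7 (7.95, others 11.9 to 12.2), and highest in Cdk1 (286, others 225 to 228). The 2-cell library H was highest in Tob1 (41.5 CPM, others 25.4 to 26.7), and F lowest in Kdm5b (45.6, others 64.2 to 67.8). Each called gene among these kept its call without the library that stood apart.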

How the results depend on the processing

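The 146 named genes were recomputed under 17 alternatives. None of the 113 called genes reversed, and 110 of them kept their call throughout. The exceptions were Obox1, Polr1a and Prm2 (0.93 after quantile normalisation). Of the 33 genes not called, none was called against its main direction, and changes of sign short of a call were not counted. Over all genes, quantile normalisation gave 2827 rises and 3160 falls, with the zygote nearer to the egg in 1471 and 1454 of them; TMM scaling put 1103 falls there and edgeR 1445 rises. DESeq2 gave 2920 falls, put 1363 falls nearer to the egg, and put 416 rises and 217 falls nearer to the 2-cell embryo. For these the cause was not tested. By construction, an adjusted p under 0.05 alone called 9617 genes (6627 higher, 2990 lower), and one under 0.01 with a change of at least 2 called 2447 (1861 higher, 586 lower). Leaving out each library in turn gave 6233 to 6348 calls, 4339 to 4599 rises and 1749 to 1904 falls. The zygote was then nearer to the egg in 2311 to 2451 rises and 699 to 766 falls, and nearer to the 2-cell embryo in 243 to 275 and 102 to 159. Genes detected per library differed by 2060 at a CPM of 1, 2077 at 0.5 and 1623 at 5. No paired analysis was possible because the 2-cell columns carry the letters E to H and not the A to D of the labels. In 524 of the rises the MII libraries held at most 3 reads each, so depth sets how large those folds can appear.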
